A study of Mus musculus with 6 samples.

Results

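The genes described here encode ligands, receptors and adaptors of insulin, insulin-like growth factor (IGF) and neuregulin signalling in the mouse left ventricle. They were taken by symbol from a list of 10 genes, a list made when earlier results of these data were known. Of these, 8 were found among the 31273 genes of the expression table, and Igf1 and Igf1r were not analysed here. The 8 are the ligand genes Nrg1 and Hbegf, the receptor genes Insr, Erbb2, Erbb3 and Erbb4, and the adaptor genes Irs1 and Irs2. Polyadenylated RNA was sequenced from left ventricles, with 3 libraries whose genotype label is control and 3 whose label is cardiomyocyte-specific RBM20 overexpression. RBM20 is a splicing regulator of striated muscle, and the series' design text describes its knock-in as induced by tamoxifen in cardiomyocytes. No source used here gives the strain, the age, the promoter that drives the Cre recombinase or the time after induction. The labels do not say whether control mice carried the Cre or received tamoxifen, so effects of Cre, tamoxifen and RBM20 cannot be told apart. Control libraries carry the tag cki in their titles and overexpression libraries the tag cre, and grouping followed the genotype label.

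The level of Rbm20 followed that label, at 74.9, 90.9 and 79.5 TPM (reads corrected for transcript length and scaled to the same total in every library) in control replicates 1 to 3 and at 321, 913 and 907 TPM in overexpression replicates 1 to 3. Overexpression replicate 1 stood apart from the other libraries of its group in this lower Rbm20 level and in sex, since it held the Y-linked transcript Ddx3y at 88.1 TPM, which was listed at 0 in the other 5 libraries. Esr1, the gene of the estrogen receptor from which tamoxifen-inducible Cre proteins borrow their ligand-binding part, lay between 0.234 and 0.415 TPM in control and between 53 and 218 TPM in overexpression libraries. Estimated depth was 40300000 to 86500000 read ends per library, counting each end of a read pair by itself. Read numbers given below for single genes are minimums and may not be on this scale. Transcripts encoded by mitochondrial DNA took 48.3% to 52.0% of the TPM in control and 36.7% to 41.0% in overexpression libraries. Because TPM values share a fixed total, the differences of the 8 genes are given in deposited TPM and again after each library was divided by its median ratio to the gene-wise geometric mean of all libraries ("rescaled"). This rescaling moved the median log2 difference of the 12404 tested genes from 0.55 to 0.01. All 10 ventricular cardiomyocyte markers passed the filter on low values described below.

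Insulin and IGF receptors are paired tyrosine kinases that, once bound by hormone, phosphorylate the docking proteins IRS1 and IRS2, which recruit PI3 kinase and so switch on AKT. In heart muscle this route supports glucose uptake, protein synthesis and cell growth. Neuregulin 1 is made mainly by endothelial cells of the heart and acts on cardiomyocytes through ERBB4, which pairs with ERBB2. ERBB2 has no known ligand of its own and ERBB3 has little kinase activity, so both signal chiefly as partners, and loss of ERBB2 signalling in cardiomyocytes leads to dilated cardiomyopathy. HBEGF is a membrane-anchored growth factor that metalloproteinases release and that binds the EGF receptor and ERBB4.

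Both ligand genes stood higher in overexpression ventricles and the genes of the insulin receptor and ERBB4 stood lower, while the adaptor genes did not separate the groups. All 8 genes reached the filter of a mean of 1 TPM, and all 8 would have reached it in the control libraries alone. In deposited TPM, 3 of the 8 were called higher (Nrg1, Hbegf and Erbb3), against 59% of all tested genes, and 2 were called lower (Insr and Erbb4), against 9.09% of all tested genes. Calls are at an adjusted p below 0.05 in limma, fitted over all tested genes with Benjamini-Hochberg adjustment. After rescaling, 2 of 8 were called higher (Nrg1 and Hbegf) and 2 lower (Insr and Erbb4), against 22.2% and 24% of all tested genes. The groups did not overlap in 5 of the 8 genes in TPM, where this held for 72.5% of all tested genes, and in 4 of the 8 after rescaling, where it held for 57%. The median log2 difference of the 8 genes was 0.58 in TPM and 0.05 after rescaling, close to the 0.55 and 0.01 of all tested genes.

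**Figure D1:**
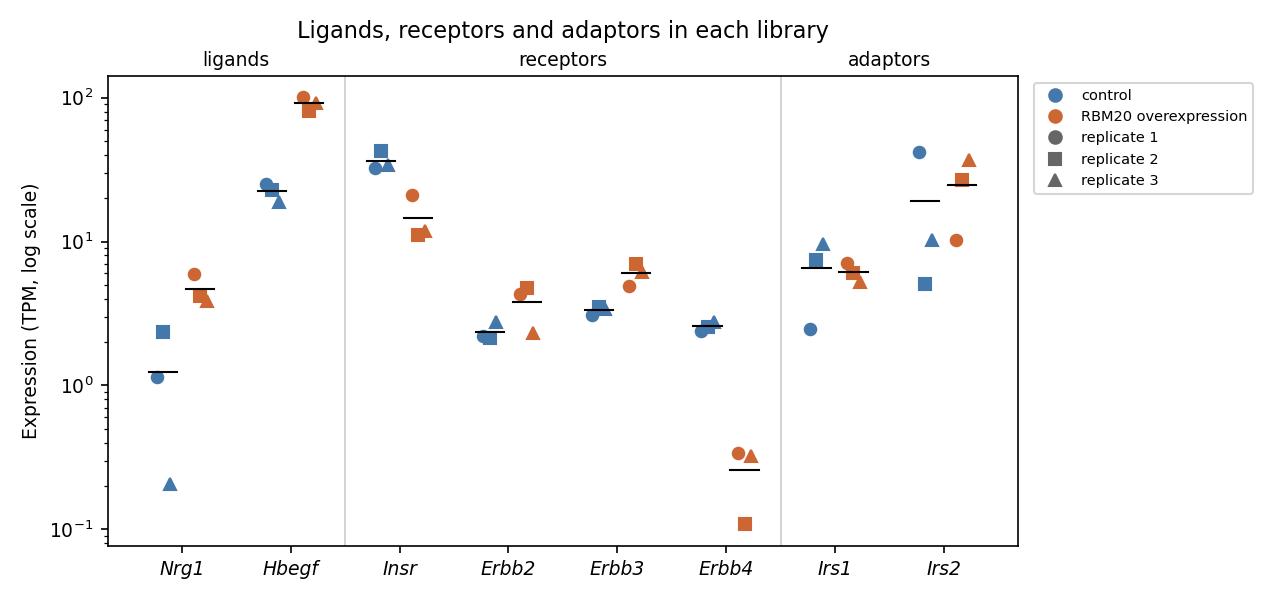
Expression in TPM on a log axis of the 8 genes in each library, grouped as ligands, receptors and adaptors; blue is control, orange is RBM20 overexpression, marker shapes are replicates 1 to 3 and black lines are group means. Hbegf lies higher in all 3 overexpression libraries, at 80.5 to 101 TPM, and Erbb4 lower, at 0.108 to 0.341 TPM.

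Hbegf was the member with the smallest adjusted p in deposited TPM. It stood at 25.3, 22.9 and 18.9 TPM in control replicates 1 to 3 and at 101, 80.5 and 92.2 TPM in overexpression replicates 1 to 3. The lowest overexpression library was thus far above the highest control library. The mean rose 4.08-fold, from 22.4 ± 3.24 to 91.2 ± 10.1 TPM (SD, n = 3 each). The log2(TPM + 1) difference was 1.98 (SE 0.134, limma adjusted p = 1.71e-05), and the rescaled difference was 1.37 (SE 0.146, limma adjusted p = 0.000211). Hbegf was the most abundant of 11 EGF-family ligand genes in every library, with 77.6% to 82.8% of their summed TPM in control and 82.8% to 88.4% in overexpression libraries. It thus remained the main ligand transcript of the family while its own level rose.

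Nrg1 (GRCm38 chromosome 8, 31814551 to 32884029, minus strand) was low and uneven in control ventricles, at 1.15, 2.36 and 0.207 TPM in replicates 1 to 3. It stood at 5.99, 4.18 and 3.84 TPM in overexpression replicates 1 to 3, all above the highest control library. The control value of 0.207 TPM rests on at least 21 counted reads, and the other 5 libraries hold at least 135 each. The source of the spread among controls was not tested. The mean rose 3.77-fold, from 1.24 ± 1.08 to 4.67 ± 1.16 TPM (SD, n = 3 each). The log2(TPM + 1) difference was 1.44 (SE 0.345, limma adjusted p = 0.00569), and after rescaling it was 1.05 (SE 0.369, limma adjusted p = 0.0487), just past the threshold. That rescaled call ended when any library except control replicate 2 was left out (limma adjusted p = 0.0758 to 0.135). The rescaled difference was then 0.63 without control replicate 3 and 0.88 to 1.12 without one of the other 4 libraries. The call also ended in voom, a count-based form of limma, on reads recovered from the TPM steps and rescaled, where the difference was 1.62 (adjusted p = 0.0607). In deposited TPM the call held with each library left out in turn, at limma adjusted p values of up to 0.0209. Type I, II and III neuregulins arise from different Nrg1 start sites and exons, and gene totals cannot separate them.

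Insr (chromosome 8, 3122061 to 3279617, minus strand), the insulin receptor gene, was the most abundant receptor gene of the 4 in every library. It stood at 32.6, 42.3 and 33.9 TPM in control replicates 1 to 3 and at 20.9, 11.1 and 11.9 TPM in overexpression replicates 1 to 3. The groups did not overlap, and overexpression replicate 1 was nearest to the controls. That library differed from the others of its group in both Rbm20 level and sex, which cannot be told apart here. In TPM it was also nearest to the controls in Erbb3 and Erbb4, but farthest from them in Hbegf and Nrg1. Means were 36.2 ± 5.26 and 14.6 ± 5.47 TPM (SD, n = 3 each), a ratio of 0.404. The log2(TPM + 1) difference was -1.30 (SE 0.224, limma adjusted p = 0.00111), and it was -1.89 after rescaling (SE 0.223, limma adjusted p = 0.000357). Without overexpression replicate 1 the difference was -1.57 (limma adjusted p = 0.000159).

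Erbb4 (chromosome 1, 68032186 to 69108059, minus strand) had the largest proportional fall of the 8 genes. It was steady in control ventricles, at 2.38, 2.56 and 2.77 TPM, and far lower in overexpression replicates 1 to 3, at 0.341, 0.108 and 0.324 TPM. These values rest on 576, 873 and 577 counted reads in control replicates 1 to 3 and on 80, 23 and 128 in overexpression replicates 1 to 3, as a minimum. Means were 2.57 ± 0.195 and 0.258 ± 0.13 TPM (SD, n = 3 each), a 9.96-fold higher level in control. The log2(TPM + 1) difference of -1.51 (SE 0.167, limma adjusted p = 0.000125) understates this, since the added 1 TPM is larger than the overexpression values. With 0.1 TPM added the difference was -2.97 (limma adjusted p = 0.000289), and in voom on recovered reads against library totals it was -3.58 (adjusted p = 0.00018). Rescaling gave -1.79 (SE 0.157, limma adjusted p = 8.83e-05). Splice forms of Erbb4 that differ in the juxtamembrane and cytoplasmic parts were not separated.

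Erbb3 (chromosome 10, 128567523 to 128589652, minus strand) stood at 3.1, 3.52 and 3.39 TPM in control and at 4.87, 7.03 and 6.1 TPM in overexpression replicates 1 to 3, with no overlap. Means were 3.34 ± 0.219 and 6 ± 1.08 TPM (SD, n = 3 each), a log2(TPM + 1) difference of 0.68 (SE 0.163, limma adjusted p = 0.00572), close to the shift of 0.55 seen in the median gene. Rescaled, the difference was 0.17 (SE 0.145, limma adjusted p = 0.374), the groups overlapped and the call ended. Erbb2 (chromosome 11, 98412470 to 98437716, plus strand) stood at 2.19, 2.15 and 2.76 TPM in control and at 4.35, 4.76 and 2.31 TPM in overexpression replicates 1 to 3. Overexpression replicate 3 lay inside the control range. The difference was 0.48 (SE 0.228, limma adjusted p = 0.0921), and 0.01 after rescaling (SE 0.204, limma adjusted p = 0.981). Erbb2 was called higher in TPM only when overexpression replicate 3 was left out (0.73, limma adjusted p = 0.00746).

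**Figure D2:**
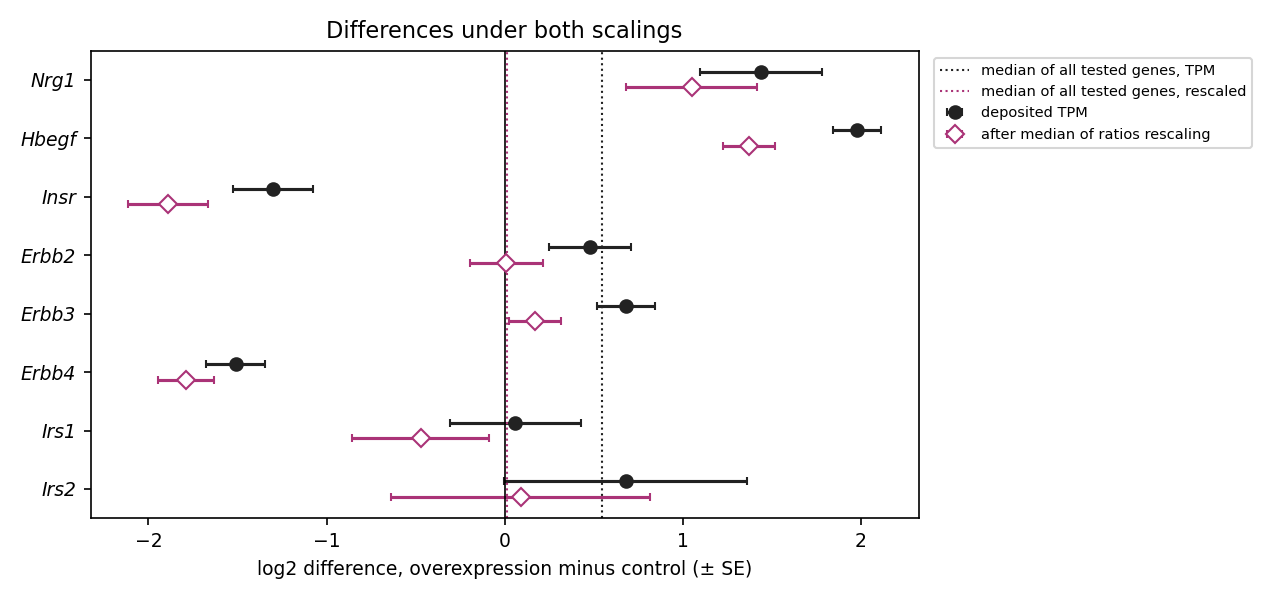
The log2(TPM + 1) difference between groups with its standard error for each gene, in deposited TPM (black) and after rescaling (purple); dotted lines mark the median of all tested genes under each scaling. Hbegf and Nrg1 lie above both medians and Insr and Erbb4 below both, while Erbb2 and Erbb3 lie near them.

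The start-site windows of Erbb4 and Erbb2 are shown because these partner receptor genes were nearly level in control ventricles and far apart in overexpression ventricles. RefSeq windows of 300 bases (GRCm38.p6, 250 before to 50 after the start, in the direction of the gene) were available for 4 of the 8 genes. Capitals mark matches on either strand to any of 4 motifs. The GC box was searched as GGGCGG, the letters that the SP1 factor is known to bind. The CCAAT box was searched by its own letters and the E-box as CACGTG. The FOXO site was searched as TGTTTAC. The Erbb4 window lies at chr1:69108010-69108309 on the minus strand and the Erbb2 window at chr11:98412234-98412533 on the plus strand.
Erbb4: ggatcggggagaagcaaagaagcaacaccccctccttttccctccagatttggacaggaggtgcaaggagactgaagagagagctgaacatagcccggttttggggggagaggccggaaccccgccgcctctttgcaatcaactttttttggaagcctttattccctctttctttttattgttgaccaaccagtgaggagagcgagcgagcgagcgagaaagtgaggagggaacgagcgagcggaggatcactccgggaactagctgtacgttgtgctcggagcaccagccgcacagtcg
Erbb2: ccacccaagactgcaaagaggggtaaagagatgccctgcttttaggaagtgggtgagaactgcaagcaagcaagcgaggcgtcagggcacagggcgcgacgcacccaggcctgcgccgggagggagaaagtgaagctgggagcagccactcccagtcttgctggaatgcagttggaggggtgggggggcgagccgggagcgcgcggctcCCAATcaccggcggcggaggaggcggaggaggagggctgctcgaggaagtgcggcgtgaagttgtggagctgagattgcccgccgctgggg
The Erbb4 window held none of the 4 motifs, and the Erbb2 window held 1 CCAAT box. Across all 32851 RefSeq windows, 35.7% held a GC box, 37.4% a CCAAT box, 7.15% an E-box and 3.65% the FOXO site, and no matches overlapped in the 4 windows of these genes. GC content was 55.3% in the Erbb4 window and 66% in the Erbb2 window, beside a median of 52.7% over all windows. These matches describe letters in the windows and show no binding.

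Ratios within a library do not depend on how that library was scaled. Of 8 ratios planned, the 6 that need neither Igf1 nor Igf1r were computed, and 5 of them did not overlap between groups. Each of these 5 has Erbb4 or Insr, the members called lower, as its denominator, so they are not separate results. Among all tested genes taken singly, 72.5% did not overlap in TPM. Erbb2 and Erbb4 were nearly level in control ventricles, with Erbb2/Erbb4 ratios of 0.921, 0.842 and 0.999, and stood at 12.8, 44 and 7.15 in overexpression replicates 1 to 3. The Erbb3/Erbb4 ratio was 1.3, 1.38 and 1.22 in control and 14.3, 64.9 and 18.9 in overexpression libraries. Transcripts of the ERBB3 and ERBB2 partners thus outnumbered those of ERBB4 severalfold after overexpression. The Nrg1/Erbb4 ratio ran from 0.0749 to 0.922 in control and from 11.9 to 38.6 in overexpression libraries. Hbegf/Erbb4 ran from 6.82 to 10.6 and from 285 to 744. The Erbb2/Insr ratio ran from 0.051 to 0.0816 in control and from 0.194 to 0.431 in overexpression libraries. Each of these 5 ratios had an exact two-sided permutation p of 0.1, the smallest that 3 against 3 libraries can give, and an adjusted p of 0.12 over the 6 ratios.

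The 3 neuregulin receptor genes together summed to 7.66, 8.24 and 8.92 TPM in control replicates 1 to 3. In overexpression replicates 1 to 3 they summed to 9.57, 11.9 and 8.74 TPM. In deposited TPM their sum thus overlapped between groups, while the shares of Erbb3 and Erbb4 in it did not. The sum depends on how a library was scaled and the shares do not. After rescaling, the sum in every overexpression library lay below that in every control library. Erbb4 made up 31%, 31.1% and 31% of that sum in control and 3.57%, 0.91% and 3.7% in overexpression replicates 1 to 3. The share of Erbb3 was 40.4% ± 2.4 in control and 59.9% ± 9.47 in overexpression libraries (SD, n = 3 each), without overlap. Shares are parts of one whole, so a smaller Erbb4 share enlarges the others, and the Erbb3 share is not a separate result. Erbb3 itself was not called after rescaling (0.17, limma adjusted p = 0.374). The share of Erbb2 was 28.6% ± 2.42 and 37.3% ± 9.79 (SD, n = 3 each), with overexpression replicate 3 at 26.5% inside the control range.

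**Figure D3:**
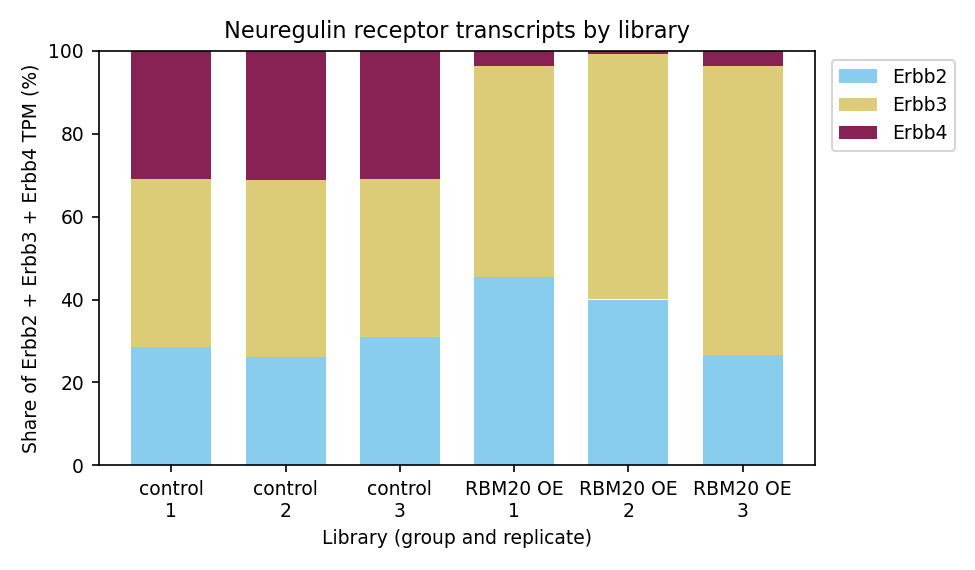
Shares of the summed TPM of Erbb2, Erbb3 and Erbb4 in each library, in percent, as stacked bars. Erbb4 fills 31% to 31.1% of the bar in the control libraries and 0.91% to 3.7% in the overexpression libraries.

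The adaptor genes differed more between libraries of one group than between groups. Irs1 (chromosome 1, 82233101 to 82291416, minus strand), the docking protein gene linked most to muscle growth, stood at 2.47, 7.39 and 9.66 TPM in control and at 7.1, 6 and 5.23 TPM in overexpression replicates 1 to 3. The log2(TPM + 1) difference was 0.06 (SE 0.369, limma adjusted p = 0.887), and -0.47 after rescaling (SE 0.385, limma adjusted p = 0.357). Irs2 (chromosome 8, 10984681 to 11008458, minus strand), whose transcription is known to fall under insulin and rise in fasting, spanned 41.7, 5.06 and 10.3 TPM in control and 10.3, 26.9 and 36.9 TPM in overexpression replicates 1 to 3. Its difference was 0.68 (SE 0.681, limma adjusted p = 0.395), and 0.09 after rescaling (SE 0.727, limma adjusted p = 0.927). Control replicate 1 held both the highest Irs2 and the lowest Irs1 of all libraries, and leaving it out changed a call of each gene under 1 scaling only. Without it, Irs2 was called higher in TPM (1.47, limma adjusted p = 0.0237) but not after rescaling (0.90, limma adjusted p = 0.204). Irs1 was then called lower after rescaling (-0.97, limma adjusted p = 0.0053) but not in TPM (-0.42, limma adjusted p = 0.0821). The 3 libraries lowest in Irs1 were the 3 highest in Irs2, across both groups, an order noticed after the values were seen. The Irs1/Irs2 ratio was 0.0592, 1.46 and 0.937 in control and 0.688, 0.223 and 0.142 in overexpression replicates 1 to 3, and overlapped between groups (exact two-sided permutation p = 0.8, n = 3 each).

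**Figure D4:**
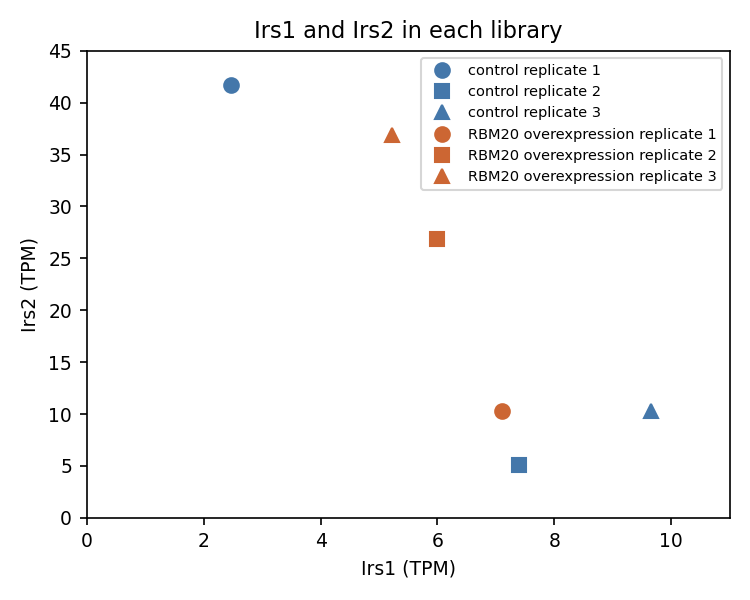
Irs2 against Irs1 in TPM, with 1 point for each of the 6 libraries; color gives the group and shape the replicate. Control replicate 1 lies at the upper left, at 2.47 TPM of Irs1 and 41.7 TPM of Irs2, away from the other control libraries.

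The windows of the Irs genes are shown because the libraries lowest in one of these paralogs were the highest in the other. They lie at chr1:82291390-82291689 (Irs1) and chr8:11008880-11009179 (Irs2), both on the minus strand, with the same motifs in capitals. The RefSeq start of Irs2 lies upstream of the gene bounds given above, which reach 11008458, so its whole window lies outside them.
Irs1: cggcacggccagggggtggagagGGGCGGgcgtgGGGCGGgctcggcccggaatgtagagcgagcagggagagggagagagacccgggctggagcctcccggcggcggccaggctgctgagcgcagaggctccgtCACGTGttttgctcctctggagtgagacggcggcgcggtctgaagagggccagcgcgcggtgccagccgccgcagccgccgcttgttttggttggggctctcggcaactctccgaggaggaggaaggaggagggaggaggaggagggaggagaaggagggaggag
Irs2: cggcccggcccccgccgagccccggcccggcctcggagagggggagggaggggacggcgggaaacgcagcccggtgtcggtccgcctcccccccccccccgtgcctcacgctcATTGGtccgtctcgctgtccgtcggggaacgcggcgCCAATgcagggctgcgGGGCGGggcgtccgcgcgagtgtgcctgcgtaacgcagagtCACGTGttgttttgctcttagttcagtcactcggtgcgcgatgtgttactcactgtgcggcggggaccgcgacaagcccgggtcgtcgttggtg
Both windows held 1 E-box, a motif found in 7.15% of all windows. Irs1 also held 2 GC boxes, and Irs2 held 1 GC box and 2 CCAAT boxes. The FOXO site was searched only as TGTTTAC, which was not matched in either window, and other forms of the site were not searched. GC content was 71.3% in the Irs1 window and 72% in the Irs2 window.

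Among other ligands and processing enzymes of the EGF family, Ereg, Adam9 and Rnf41 were higher and Egf lower in overexpression ventricles. Of 19 listed genes 13 were tested, and 9 were called higher and 1 lower in TPM, where the shares of all tested genes were 59% and 9.09%. After rescaling 5 were called higher and 1 lower, beside 22.2% and 24% of all tested genes. These same shares of all genes apply to each list that follows. The median log2 difference of the 13 was 0.87, and 0.26 after rescaling. Ereg, Tgfa and Adam12 passed the filter through the overexpression group alone, since 10 of the 13 reached 1 TPM in the control mean. Of those 10 genes 6 were called higher in TPM and 2 after rescaling, shares near those of all genes. Ereg, which encodes the ERBB1 and ERBB4 ligand epiregulin, was listed at 0, 0.12 and 0 TPM in control and at 3.4, 4.35 and 3.58 TPM in overexpression replicates 1 to 3. Egf, the founding ligand of the family, was the lone gene called lower, from 1.64 ± 0.428 to 0.645 ± 0.203 TPM (SD, n = 3 each, limma adjusted p = 0.0127), with a rescaled difference of -0.99. Adam9, a membrane metalloproteinase able to release HBEGF, rose from 29.3 ± 1.96 to 84.5 ± 15.9 TPM (SD, n = 3 each), with a rescaled difference of 0.87 (limma adjusted p = 0.000614). Rnf41, a ubiquitin ligase that lowers ERBB3 protein, rose from 7.11 ± 0.205 to 17.2 ± 2.49 TPM (SD, n = 3 each), with a rescaled difference of 0.58 (limma adjusted p = 0.00328). Of 15 listed IGF-system genes 5 had a row and 2 were tested (Stc1 and Stc2, which encode inhibitors of the IGF-binding protein protease PAPP-A), and 0 were called in limma under either scaling, with 0 at an unadjusted p below 0.05 and 0 in voom. The other 10 were not analysed here.

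Genes that act at the receptor were higher in TPM in 14 of 17 tested members and lower in 1, or 9 and 3 after rescaling, with medians of 0.88 and 0.31 beside 0.55 and 0.01 for all tested genes. Grb14, a pseudosubstrate inhibitor of the insulin receptor kinase, was the 1 member called lower under both scalings. It fell from 83.3 ± 9.17 to 33.3 ± 5.8 TPM (SD, n = 3 each), a log2(TPM + 1) difference of -1.30, the same size as that of Insr itself, and -1.92 after rescaling (limma adjusted p = 7.83e-05). Its paralog Grb10, which also inhibits insulin and IGF receptors, went the other way, from 34.3 ± 3.81 to 97 ± 20 TPM (SD, n = 3 each), and 0.84 after rescaling (limma adjusted p = 0.00396). Ptpn1, the phosphatase that removes phosphate from the insulin receptor, rose from 11.1 ± 1.04 to 24.6 ± 1.7 TPM (SD, n = 3 each) and by 0.49 after rescaling (limma adjusted p = 0.00891). Shc1, the adaptor that links receptors to RAS, rose from 16.3 ± 0.978 to 38.2 ± 3.67 TPM (SD, n = 3 each) and by 0.57 after rescaling (limma adjusted p = 0.00146).

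Downstream kinase genes largely followed the shift of all genes. Of 31 PI3K, AKT, mTOR and FOXO genes 19 were called higher and 1 lower in TPM, but 5 higher and 9 lower after rescaling, with medians of 0.56 and 0.00. Pik3cb, a catalytic subunit of PI3 kinase, rose from 4.53 ± 0.391 to 16.3 ± 3.88 TPM (SD, n = 3 each) and was also higher after rescaling (1.07, limma adjusted p = 0.000609). Pdpk1, the kinase that activates AKT, was higher by 0.59 after rescaling (limma adjusted p = 0.00179) and Gsk3b, a kinase that AKT inhibits, by 0.39 (limma adjusted p = 0.0161). Foxo3, a transcription factor that AKT keeps out of the nucleus, fell from 34.1 ± 5.38 to 23.3 ± 2.71 TPM (SD, n = 3 each, limma adjusted p = 0.0109), with a rescaled difference of -1.13. Of 22 RAS and ERK genes 18 were called in TPM, all of them higher, and 4 were called higher and 3 lower after rescaling, with medians of 0.62 and 0.02. Nras, Rras and Spred1, 2 small GTPases and an inhibitor of RAF activation, were among those higher under both scalings, with rescaled differences of 0.61, 0.44 and 0.53.

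Genes of insulin-stimulated glucose uptake went both ways in TPM, with 6 of 14 called higher and 5 lower, and mostly down after rescaling, with 1 higher and 9 lower. Their medians of -0.10 and -0.71 lay below the 0.55 and 0.01 of all tested genes. Slc2a4, the insulin-responsive transporter GLUT4, stood at 196, 208 and 188 TPM in control and at 81.3, 77 and 89.3 TPM in overexpression replicates 1 to 3 (log2 difference -1.25, SE 0.0913, limma adjusted p = 2.25e-05), and the rescaled difference was -1.87. Slc2a1, the transporter GLUT1 that works without insulin, went from 6.96 ± 1.06 to 25 ± 6.55 TPM (SD, n = 3 each) and was the 1 member higher under both scalings. Slc2a12, a further insulin-sensitive transporter, stood at 2.67, 3.26 and 2.52 TPM in control and at 0.259, 0.109 and 0.299 TPM in overexpression replicates 1 to 3, levels close to those of Erbb4, with a rescaled difference of -1.92. Pfkfb2, the heart enzyme that AKT activates to speed glycolysis, fell from 38.8 ± 3.02 to 7.76 ± 2.37 TPM (SD, n = 3 each, limma adjusted p = 3.81e-05), with a rescaled difference of -2.79. In each of these 3 falling genes every overexpression library lay below all control libraries in TPM. They were named for their small p, and 72.5% of all tested genes had groups that did not overlap in TPM.

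Genes known to respond to FOXO factors went both ways in TPM and leaned lower after rescaling. Of 12 listed genes 1 was not analysed here. Among 11 tested members 3 were called higher and 2 lower in TPM, and 2 higher and 5 lower after rescaling. The medians of -0.05 and -0.68 lay below the 0.55 and 0.01 of all tested genes. Sesn3, a stress sensor, rose from 5.98 ± 0.504 to 21.1 ± 2.19 TPM (SD, n = 3 each) and Cited2, a transcriptional coregulator, from 18.6 ± 7.51 to 56.6 ± 3.63 TPM, with rescaled differences of 1.09 and 1.03. Pdk4, the kinase that shuts off pyruvate dehydrogenase, fell from 914 ± 420 to 243 ± 62 TPM (SD, n = 3 each, limma adjusted p = 0.000723), with a rescaled difference of -2.47.

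**Figure D5:**
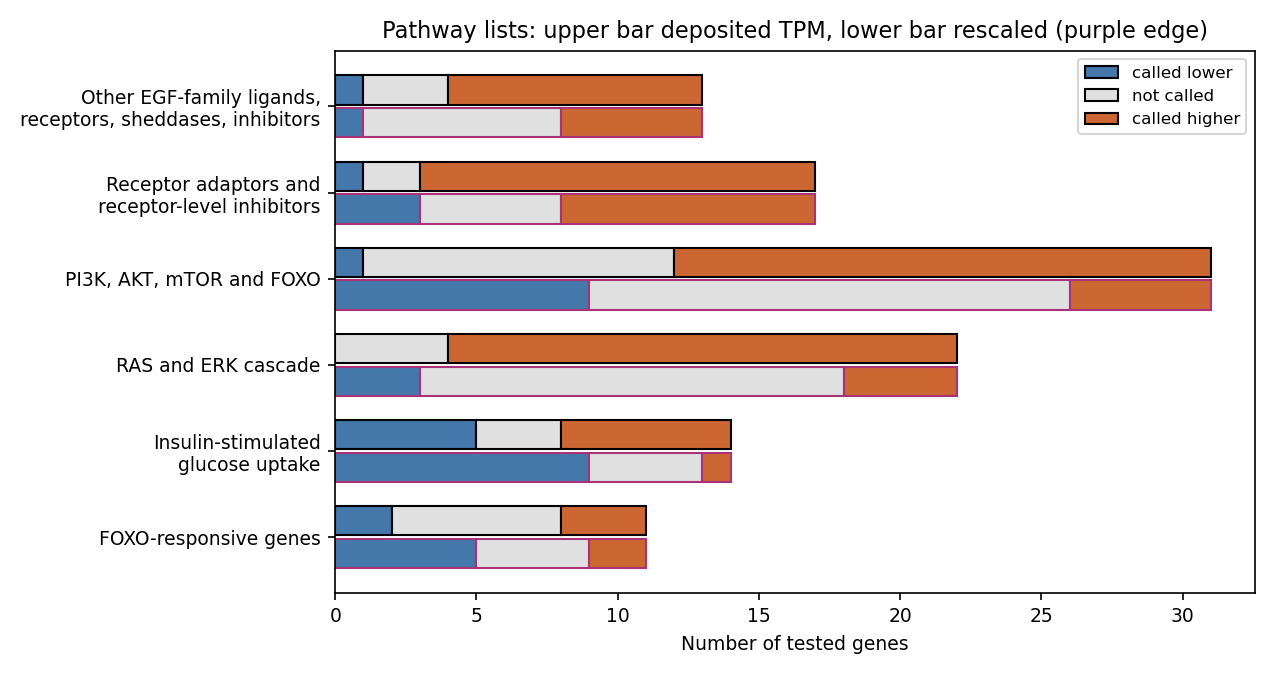
Number of tested genes called lower (blue), not called (grey) and called higher (orange) in 6 pathway lists, with the upper bar of each pair in deposited TPM and the lower bar after rescaling. Glucose uptake genes hold 5 lower calls in TPM and 9 after rescaling, and RAS and ERK genes hold 18 higher calls in TPM and 4 after rescaling.

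Summed levels of some cell type markers also differed between groups. In bulk tissue fewer cells of a type and less RNA per cell cannot be told apart. The summed level of 10 ventricular cardiomyocyte markers was 47805 to 52443 TPM in control and 32943 to 37721 TPM in overexpression libraries, a ratio of means of 0.693, where Insr had 0.404 and Erbb4 0.1. Of these 10 markers 6 were called lower and 1 higher in TPM, and none was at 0. After rescaling the ratio was 0.451 and 9 were called lower. The summed level of 10 macrophage markers was 362 to 477 TPM and 764 to 1338 TPM, 2.54-fold higher, with 10 of 10 called higher, beside 4.08-fold for Hbegf and 3.77-fold for Nrg1. After rescaling it was 1.63-fold higher, with 8 of 10 called higher. Endothelial markers summed to 698 to 841 TPM and 781 to 891 TPM, with 1 of 10 called, higher. Their ratio of means was 1.06 in TPM and 0.687 after rescaling, where 4 of 10 were called, all lower. Fibroblast markers summed to 1359 to 1809 TPM and 2063 to 2394 TPM, with 7 of 10 called higher and 1 lower. Their ratio turned from 1.36 in TPM to 0.878 after rescaling, with 5 called higher and 3 lower. Atrial cardiomyocyte markers summed to 103 to 187 TPM and 2566 to 4210 TPM, with 4 of 5 tested called higher in TPM and 2 after rescaling. The part of these cell types in the differences of the 8 genes was not tested.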

How the data were processed

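RNA sequencing of 6 mouse left ventricles (3 control, 3 RBM20 overexpression) was analysed from a table of TPM per gene symbol deposited by the authors. Per the labels' protocols, libraries were poly(A)-selected and read as strand-specific pairs. Build mm8, STAR-Fusion 1.11.0, GATK 4.2.6.1, featureCounts 2.0.3 and edgeR 3.40.2 are named, without roles, per the submitters' processing notes. No source used here gives the aligner, the annotation or the strand setting of the counting, so reads of overlapping genes may be shared. Gene positions are those of GRCm38 (GENCODE M21) and entered no test.

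The test covered genes whose mean over the 6 libraries reached 1 TPM, on log2(TPM + 1), with limma 3.58.1 in R 4.3.3 (trended, two-sided, Benjamini-Hochberg over 12404 genes, threshold 0.05). Differences on that scale understate changes of low genes, so folds are given as quotients of mean TPM. For rescaled values each library was divided by its median quotient to the gene-wise geometric means, a factor between 0.783 and 0.848 for each control library and between 1.16 and 1.34 for each of the others. Read numbers were recovered from the steps of low TPM values: 98.9% of tested genes gave whole numbers in all libraries at some length within 50% of that in GENCODE M21 (tolerance 0.02 reads). They are known up to a whole factor, so minimum numbers are given. Voom from limma on these reads was added after the data were seen. The fit was tested on simulated data.

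Groups came from the genotype labels, and table columns were matched to samples by the number in both names. The labels do not say that libraries are separate animals beyond those numbers, so p-values measure the spread between these libraries. Members and lists were chosen with earlier results of these data known. Named genes are all members, Rbm20, the 3 called genes with the smallest p of each pathway list and the first in the other direction; other named genes (Esr1, Ddx3y, Stc1, Stc2, Pappa, Tgfa and Adam12) were named after their values were seen. Alternatives were other pseudocounts, filters and scalings, limma without trend or robust, and each library left out. Splicing was not analysed here. Some marker lists are not reported here.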

Additional observations from a re-analysis of the deposited data

How the results depend on the processing

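With all 6 libraries, 8443 genes and 5 of the 8 members were called in deposited TPM. The calls of Insr, Erbb4 and Hbegf held in every alternative in which the gene was tested (22, 21 and 22 alternatives). Voom on rescaled recovered reads called 5485 genes and 3 members, since Nrg1 and Erbb3 lost their calls. A filter at a mean of 5 TPM called 2 members, because Nrg1, Erbb3 and Erbb4 were then not tested. Among the IGF-system genes 1 was called with no filter and 1 with mitochondrial genes removed (Pappa, which the 1 TPM filter leaves out of the main test). The EGF-family list held 6 calls after rescaling, in voom on rescaled reads and at a mean of 5 TPM. The RAS and ERK list held 7 calls after rescaling, 11 without mitochondrial genes and 6 in voom on rescaled reads. The FOXO-responsive list held 3 with no filter and 3 without the trend. The Irs1 difference turned negative after rescaling (-0.47), without mitochondrial genes (-0.18) and in voom with library totals (-0.09) or rescaling (-0.52), and Erbb2 did so in voom with rescaling (-0.04). None of these negative differences passed the threshold. The cause of these changes was not tested.

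With each library left out in turn, under both scalings together, 4414 to 8283 genes and 3 to 6 members were called. Calls ran from 5 to 11 in the EGF-family list, 7 to 15 among receptor adaptors, 7 to 22 in the PI3K list, 3 to 19 in the RAS and ERK list and 3 to 7 in the FOXO-responsive list. Differences ran from -0.97 to 0.39 for Irs1, -0.58 to 1.47 for Irs2 and -0.09 to 0.73 for Erbb2. The log2 Irs1/Irs2 difference ran from -2.07 without control replicate 1 to 0.24 without control replicate 2. Overexpression values of Erbb4 rest on as few as 23 reads, which limits the precision of its ratios. No paired analysis was possible because the labels give no replicate numbers shared between groups.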
